A study of Mus musculus with 2 samples.

Results

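The potassium channel genes are the 91 protein-coding genes on mouse autosomes whose symbol starts with Kcn, out of 20665 autosomal protein-coding genes in the annotation. Kcnq1 and its antisense RNA were left out. The histone mark H3K4me3 was mapped by CUT&RUN, which cuts out and sequences the chromatin fragments that an antibody binds. Each library was made from 130000 sorted prospermatogonia, fetal germ cells of the male, selected for an Oct-GFP reporter at E17.5. The labels give no genotype or strain beyond that reporter, and describe 1 H3K4me3 and 1 IgG library. Peaks of the H3K4me3 library alone were analysed here, so replicate spread is unknown and no p-value is given.

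Potassium channels are membrane proteins that let potassium ions leave or enter a cell and so set its resting voltage and end its electrical impulses. Most are known from neurons, muscle, secretory epithelia and glia. H3K4me3 sits on nucleosomes at the start sites of active genes, and also at CpG-rich start sites of silent developmental genes, where it can occur together with a repressive mark. The presence of H3K4me3 at a gene therefore does not show that the gene was transcribed, and neither RNA nor other marks were measured here. The signal is an average over the sorted cells, so fewer cells carrying the mark and less of it per cell cannot be told apart.

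The whole list held 135064 peaks, with a median width of 572 bp and a median summit pileup of 27 fragments, from 9 to 316. Summit pileup is the number of fragments over the highest point of a peak. Of the germ cell markers 8 of 8 were marked at an end, with pileups of 32 to 43 fragments, among them Ddx4 and Dazl. Of Sertoli markers 4 of 5 were marked, with 34 to 47 fragments, and of Leydig markers 1 of 5, Cyp11a1, with 51. Of endothelial and blood markers 2 of 5 were marked, with 35 to 39 fragments, while Cdh5, Pecam1 and Ptprc had no peak at an end. Neuron markers were marked in 5 of 5 cases, with 43 to 51 fragments, and striated muscle markers in 3 of 5. Of all autosomal protein-coding genes 74.4% were marked at an end, so counts on 5 or 8 markers do not tell which cells were present. The part that other cells had in the peaks at potassium channel genes was not tested.

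The sequence before a start site differs widely among these genes. Start sites with strand were listed for 68 of the 91 members in RefSeq (GRCm38.p6, the same build as the mm10 of the peak list), and 15 of them had several. The 250 bases before the start are shown for 6 members, chosen after their values were seen. Kcng3 and Kcnmb4 had the most CpGs and were marked, Kcnf1 and Kcna5 had few CpGs and were marked over a wide stretch, and Kcna10 and Kcnj1 had few CpGs and no peak. Capitals mark each CpG, the dinucleotide that DNA methylation acts on, and the sequences run 5′ to 3′ up to the base before the start.
Kcng3 (chr17:83631896-83632145, minus strand): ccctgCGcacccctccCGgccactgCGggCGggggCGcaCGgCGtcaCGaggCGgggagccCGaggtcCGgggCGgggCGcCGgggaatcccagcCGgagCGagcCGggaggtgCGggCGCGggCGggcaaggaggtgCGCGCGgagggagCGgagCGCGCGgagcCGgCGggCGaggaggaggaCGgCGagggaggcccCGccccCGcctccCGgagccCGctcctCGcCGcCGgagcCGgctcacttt
Kcnmb4 (chr10:116473524-116473773, minus strand): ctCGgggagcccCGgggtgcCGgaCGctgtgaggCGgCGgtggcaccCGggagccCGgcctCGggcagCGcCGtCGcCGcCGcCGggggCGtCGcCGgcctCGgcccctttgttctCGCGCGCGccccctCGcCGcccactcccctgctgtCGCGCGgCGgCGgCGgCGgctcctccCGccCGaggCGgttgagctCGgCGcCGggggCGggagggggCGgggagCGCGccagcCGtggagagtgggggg
Kcnf1 (chr12:17176889-17177138, minus strand): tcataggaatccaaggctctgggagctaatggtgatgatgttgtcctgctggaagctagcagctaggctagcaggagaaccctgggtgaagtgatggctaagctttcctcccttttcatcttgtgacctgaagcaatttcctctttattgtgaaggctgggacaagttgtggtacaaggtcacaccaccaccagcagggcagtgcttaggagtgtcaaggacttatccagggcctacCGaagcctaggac
Kcna5 (chr6:126535556-126535805, minus strand): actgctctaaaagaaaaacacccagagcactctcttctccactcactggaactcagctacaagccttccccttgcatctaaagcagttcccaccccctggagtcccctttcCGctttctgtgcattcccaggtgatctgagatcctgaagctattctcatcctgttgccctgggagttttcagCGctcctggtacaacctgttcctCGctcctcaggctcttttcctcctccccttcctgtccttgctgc
Kcna10 (chr3:107182893-107183142, plus strand): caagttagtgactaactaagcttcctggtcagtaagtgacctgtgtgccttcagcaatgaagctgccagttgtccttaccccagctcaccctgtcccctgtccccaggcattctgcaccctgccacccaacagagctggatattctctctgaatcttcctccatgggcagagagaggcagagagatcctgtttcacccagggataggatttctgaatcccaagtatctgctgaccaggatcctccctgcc
Kcnj1 (chr9:32393735-32393984, plus strand): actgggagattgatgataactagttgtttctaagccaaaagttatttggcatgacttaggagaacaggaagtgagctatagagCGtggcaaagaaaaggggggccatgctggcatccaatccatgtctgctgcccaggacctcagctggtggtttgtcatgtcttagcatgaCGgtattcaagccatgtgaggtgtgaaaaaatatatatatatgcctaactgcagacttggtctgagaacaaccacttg
The stretch of Kcng3, a modifier subunit of voltage-gated channels, holds 41 CpGs, and that of Kcnmb4, a regulatory subunit of the large calcium-activated channel, holds 43. Those of Kcnf1 and Kcna5 hold 1 and 3. The stretch of Kcna10 holds 0 and that of Kcnj1, the potassium secretion channel of the kidney, holds 2.

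Most potassium channel genes carried H3K4me3 at an annotated end. Marked genes were those with a peak overlapping the 1 kb either side of the start or end coordinate. Of the 91 members 74 were marked (81.3%, Wilson interval 72.1 to 88.0), against 74.4% of all autosomal protein-coding genes. That background lies inside the interval, so the share as such does not set these genes apart. With the windows moved by 100 kb, 22.0% of members and 24.2% of all genes met a peak. Among genes standing over 5 kb from the ends of other protein-coding genes, 50 of 62 members were marked (80.6%), against 65.3% of all such genes. Intervals of shares treat genes as separate draws and cover counting error only.

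Counting peaks inside the gene as well, 85 of 91 members held a peak (93.4%, Wilson interval 86.4 to 96.9), against 83.5% of all genes. Potassium channel genes are long, with a median of 32.9 kb against 17.49 kb, and a long gene meets more peaks. Among genes under 10 kb 17 of 20 members held a peak at an end or inside, against 63.4% of all genes of that length. Between 10 and 50 kb it was 31 of 34 members, or 91.2%, against 91.9%. All 20 members of 50 to 200 kb and all 17 over 200 kb held one, against 99% and 100% of all genes. At an end alone, the shares were 70% of members under 10 kb against 60.5%, 79.4% against 80% from 10 to 50 kb, 85% against 85.3% from 50 to 200 kb, and 94.1% against 88.7% over 200 kb. At an end, members thus stood above all genes in the shortest class, with 14 of 20, and the longest, with 16 of 17. Both differences rest on few genes and were not tested, and the classes between were level. Moved windows of genes over 200 kb met a peak in 100% of members too, so for these long genes a peak inside says little. Among genes under 10 kb the moved windows met a peak in 45.0% of members and 31.3% of all genes. Moved windows of the ends alone met one in 40% of members and 25.0% of all genes of that length. Members thus also stood above all genes there when the end windows were moved. Over 200 kb the moved end windows met a peak in 5.88% of members and 16.5% of all genes.

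**Figure D1:**
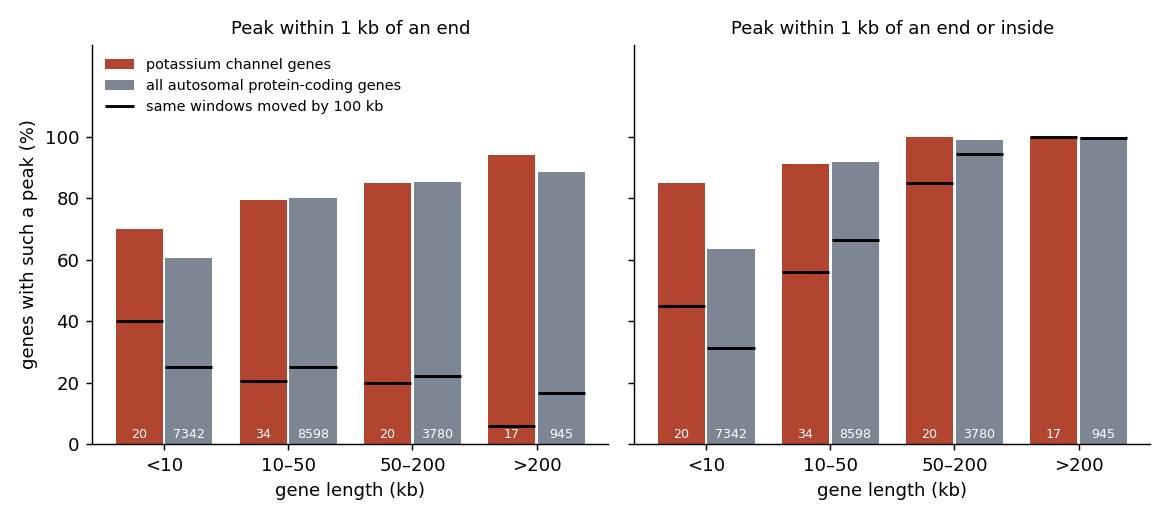
Share of genes (%) with an H3K4me3 peak within 1 kb of an end (left) and at an end or inside (right), by gene length in kb, for potassium channel genes (red) and all autosomal protein-coding genes (grey), with the number of genes in each bar. Black lines give the same windows moved by 100 kb; the 20 members under 10 kb stand at 85.0% in the right panel, against 63.4% of all genes, and the longer classes lie close to each other.

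At the marked ends the peaks were about as high and as wide as elsewhere. The highest pileup at an end had a median of 45.5 fragments over the 74 marked members, from 15 to 61, against 42 over all marked genes. The widest peak at an end had a median of 1165 bp against 1188 bp. Fold enrichment, which the authors give per peak as a ratio of pileup over local background, had a median of 5.73 over the marked members, against 6.18. A peak with a fold of at least 5 was found at an end of 53 members (58.2%), against 57.1% of all genes. The fold depends on the fragments around a peak. The median background under the end peak of highest fold was 6.92 fragments in marked members, against 5.94 over all marked genes.

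The mark lay at start sites more often than at 3′ ends. Of the 68 members with a listed start 56 had a peak within 1 kb of one (82.4%, Wilson interval 71.6 to 89.6), against 73.3% of all genes with a listed start. No peak lay within 1 kb of the 3′ end in 55 members (80.9%), against 82.5%, and 13 members had one. Both sites were marked in 11 members, and Kcnk16 and Kcnn4 were marked at the 3′ end alone. The strongest summit lay a median of 158 bp into the gene in members and 105 bp into the gene over all genes. With only peaks of a fold of at least 5, the share marked at a start was 50% in members against 56.2%, so the order of the shares turned with that threshold.

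Coverage by peaks reached further into potassium channel genes than into genes in general. At the start itself, taken as the listed start with the most CpGs, peaks covered 70.6% of the 68 members' sites and 58.8% of all 16457 sites. At 1000 bp into the gene the shares were 36.8% and 26.2%, and at 1500 bp they were 22.1% and 7.53%. At 2000 bp 7.35% of members and 3.43% of all genes were covered. On the outer side members also stood higher at 1000 bp before the start, with 22.1% against 14.8%. At 1500 bp before the start the shares were 2.94% and 4.57%.

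**Figure D2:**
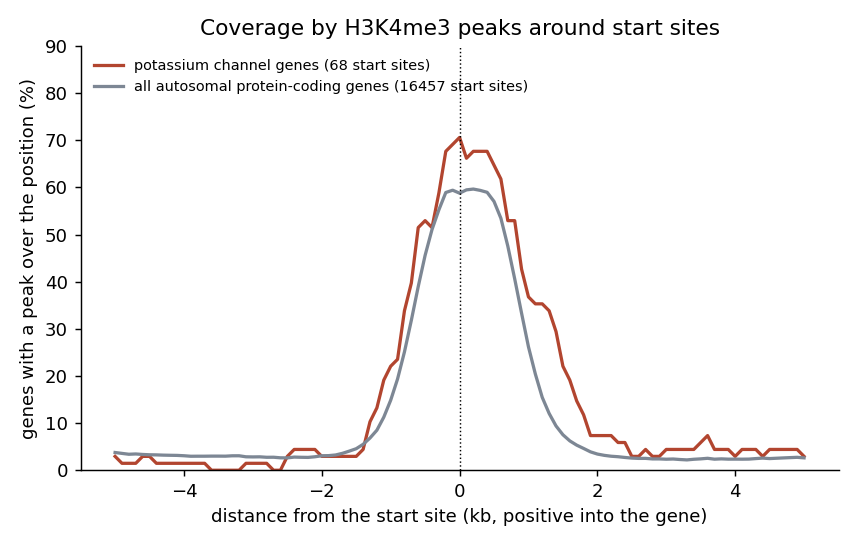
Share of genes (%) with an H3K4me3 peak over each position, at steps of 100 bp up to 5 kb either side of the start site, for 68 potassium channel genes (red) and 16457 autosomal protein-coding genes (grey). Positive distances run into the gene, where at 1500 bp the red line stands at 22.1% and the grey line at 7.53%.

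The voltage-gated pore subunits of the Kv1 to Kv4 families, which open on depolarisation and repolarise neurons and muscle, were marked in 14 of 16 cases. Their highest pileups lay between 40 and 56 fragments, with a median of 44.5. The share marked was 87.5%, against 74.4% of all genes, which lay inside the Wilson interval in this and every other class. Kcna1, the axonal channel whose mutations cause ataxia, had 56 fragments (exact Poisson interval 42.3 to 72.7) in a peak of 656 bp at its end of higher coordinate. Kcna5, a channel of atrial muscle, also had 56, in a peak of 2105 bp that ran 1838 bp into a gene of 3.0 kb. Kcnb2, a delayed rectifier of neurons, had 55 fragments (41.4 to 71.6) and a second peak beside it with 43. Kcnd2, the A-type channel of dendrites, had 46 and 44 in its pair of peaks, and Kcnc1, a channel of fast-firing neurons, 34 and 43. Kcna10 alone in this class held no peak, and the nearest lay 22430 bp away.

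The highest fold of an end peak among all members belonged to this class and lay at a 3′ end. Kcnc2, a channel of fast-spiking interneurons, had a fold of 12.2 in a peak of 835 bp at its 3′ end, on chromosome 10 from 112464893 to 112465727, with 44 fragments over a background of 2.69. Its start held a peak of 2916 bp with 48 fragments and a fold of 3.86 over a background of 11.7. The pileups of the 2 peaks were alike within their counting intervals of 32.0 to 59.1 and 35.4 to 63.6, so the difference in fold came with the difference in background. With a window of 500 bp the 3′ peak was not counted, and the highest fold at an end of Kcnc2 was 3.86. Across members with strand, the peak of highest fold lay at the start in 41 cases and at the 3′ end in 10. Those 10 3′ peaks had a median fold of 6.67 with 36 fragments over a background of 3.21. Those 41 start peaks had 5.29 with 46 fragments over 7.41. Each was picked as the highest fold of its gene, so these medians do not compare all 3′ peaks with all start peaks.

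Modifier subunits form no working channel alone and change the behaviour of Kv2 channels they join. Of this class 9 of 10 were marked, with pileups of 42 to 54 fragments and a median of 47. Kcns3 had 54 fragments (40.6 to 70.5) in a peak of 1575 bp. Kcnf1 had 51 in a single peak of 2540 bp on chromosome 12 from 17174674 to 17177213, which reached 2214 bp into the gene. Kcng2 and Kcng1 had the highest folds of end peaks in the class, 6.93 and 6.51. Kcng4 had 2 internal peaks in place of an end peak, 1250 and 1617 bp wide, both with 38 fragments.

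All members of the small Kcnq and Kcnh families were marked, against 74.4% of all genes. Their Wilson intervals, 51.0 to 100 and 67.6 to 100, include that share. Kcnq channels carry the M current, which damps repetitive firing, and 4 of 4 were marked, with 52 fragments at Kcnq3 and 40 at Kcnq5. Both of these had a pair of peaks at the end of higher coordinate and none at the other end. Of the ether-à-go-go family, Kcnh, 8 of 8 were marked, with highest pileups of 39 to 55 fragments, Kcnh6 only by peaks that also lay at ends of neighbouring genes. Kcnh2, which carries a repolarising current of the heart, had 44 fragments in a peak of 1331 bp at its annotated start and 20 at its 3′ end. The strongest peak at a listed start of Kcnh2, inside the gene, had 24 fragments over 187 bp. Kcnh1 had 43 fragments at its end and 44 at a listed start. Kcnh5 had a fold of 9.94 at its 3′ end with 46 fragments and 4.44 at its start with 44, the same arrangement as at Kcnc2.

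Inward rectifiers, which pass potassium into the cell near the resting voltage, were the class least often marked at an end, with 9 of 15. The Wilson interval, 35.7 to 80.2, includes the 74.4% of all genes. Kcnj10, the potassium buffer of astrocytes, had the highest end pileup of all members, 61 fragments (46.7 to 78.4), in a peak of 1633 bp on chromosome 1 from 172340305 to 172341937. Kcnj2, a channel that sets the resting voltage of muscle, had 52, and its peaks covered 1861 bases of the window around its annotated start, the most at an annotated end of any member. Kcnj4 had a fold of 9.12 with 29 fragments at its 3′ end and 4.77 with 37 at its annotated start. The higher value at Kcnj4 was also lost with a window of 500 bp, and where the summit or 200 bp of the peak had to lie inside the window, which left 4.77. Kcnj8 and Kcnj11, the pores of ATP-sensitive channels, had 43 and 30 fragments. Kcnj12 had 46 in a peak of 2013 bp at its annotated end.

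The inward rectifiers unmarked at their ends numbered 6, and they differed among themselves. Kcnj1, of the kidney tubule, and Kcnj13, of transporting epithelia, held no peak, and the nearest peaks lay 9353 and 56474 bp away. Kcnj9, Kcnj14 and Kcnj15 held internal peaks only. Kcnj3, a G-protein-gated channel of heart and brain, held 11 internal peaks, and 1 of them covered a listed start 24.2 kb inside the annotated end, with 49 fragments (36.3 to 64.8) over 1954 bp.

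Tandem-pore channels, Kcnk, carry the background leak of potassium, and 10 of 14 were marked at an end. Kcnk5 had 51 fragments (38.0 to 67.1) and the highest fold of an end peak in the class, 7.10, in a peak of 1939 bp. Kcnk4 and Kcnk18, leak channels of sensory neurons, had 46 and 47 fragments and folds of 7.06 and 6.70. Kcnk12 had peaks at both ends, with 39 fragments at the 3′ end and up to 50 at the start. Kcnk1, Kcnk2 and Kcnk13 were unmarked at their annotated ends but held peaks of 36, 50 and 48 fragments at start sites listed inside them. Kcnk7 alone in the class held no peak.

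Channels gated by calcium or sodium were put in 1 class with Kcnu1, and 8 of 8 in this class were marked. Its Wilson interval of 67.6 to 100 includes the 74.4% of all genes. Kcnma1, the large-conductance calcium-activated channel, had peaks of 36 and 40 fragments around its start. Kcnn3, a small-conductance channel, and Kcnt1, a sodium-activated channel, had folds of 8.12 and 7.84 with 41 and 32 fragments. Kcnn4, known from red cells and lymphocytes, had 22 fragments (13.8 to 33.3) in a peak of 366 bp at its 3′ end and none at its listed start. Kcnu1, the channel of sperm that sets the membrane voltage during capacitation, had 51 fragments at its end of lower coordinate. That peak, on chromosome 8 from 25847468 to 25848687, lay across the gap of 933 bp to an end of Ash2l, a subunit of the enzymes that place H3K4me3. It cannot be assigned to either gene.

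Auxiliary and interacting subunits were marked in 12 of 16 cases, with highest pileups of 15 to 58 fragments. Kcnip4, a calcium-binding partner of Kv4 channels, had 58 (44.0 to 75.0). Kcnab1, a cytosolic beta subunit, had a fold of 11.8 at its end with 48 fragments over a background of 3.16, and Kcnmb4 had 10.3 at its 3′ end with 35 over 2.48. Kcnip1 had 9.51 with 39 fragments. Kcnmb1, a subunit of the smooth muscle channel, had the lowest end pileup of all marked members, 15 (8.40 to 24.7). Kcnmb1 lies inside Kcnip1, so its peak is also an internal peak of Kcnip1. Kcne2 and Kcnrg held no peak.

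**Figure D3:**
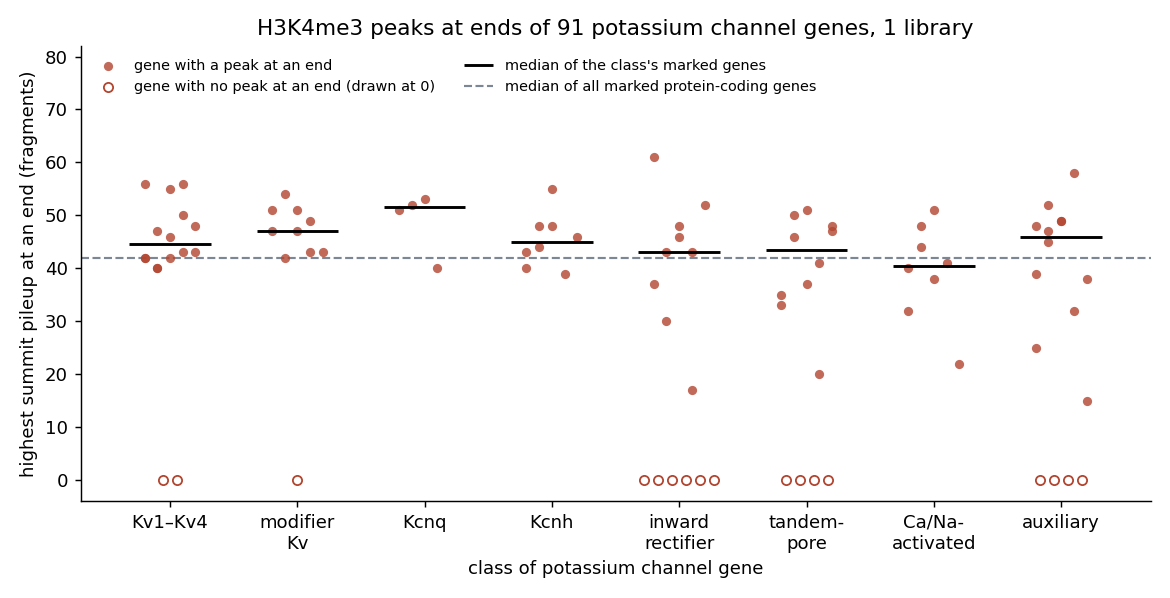
Highest summit pileup (fragments) of an H3K4me3 peak within 1 kb of an end, 1 point per potassium channel gene, by class, in 1 library. Open points at 0 are genes with no peak at an end, black bars are medians of the marked genes of a class, and the dashed line is the median of 42 fragments over all marked protein-coding genes; 6 of the 17 open points are inward rectifiers.

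Of the 17 members unmarked at their annotated ends, 7 had a peak within 1 kb of a start site listed inside the gene. At Kcna2, an axonal channel, that start lay 10.7 kb inside and had 52 fragments (38.8 to 68.2). At Kcnk2 the marked starts lay about 59 kb inside and shared a peak of 785 bp with 50 fragments and one of 972 bp with 45, while a start 509 bp inside the annotated one had none. Kcne3 had 55 fragments at a start 2176 bp inside. Kcnmb2 had 13 (6.92 to 22.2) in a peak of 486 bp at a start 842 bp inside. With these 7, 81 of 91 members (89.0%) were marked at an annotated end or a listed start, against 77.2% of all genes. Kcng4, Kcnj9 and Kcnj15 held internal peaks over 1 kb from their listed starts. Kcnj14, with no listed start, also held internal peaks only, and 6 members held no peak, or 6.59% against 16.5% of all genes. Those 6 were Kcna10, Kcne2, Kcnj1, Kcnj13, Kcnk7 and Kcnrg, with the nearest peak between 2427 and 56474 bp away.

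CpG content of the start window went with the mark. CpGs were counted in 300 bases, 250 before and 50 after the start, using the listed start with the most CpGs, and classes were split at 7 and 22. Among members with 23 CpGs or more 19 of 19 were marked at that start, against 99.5% of all genes in the class. Between 8 and 22 CpGs it was 28 of 30 (93.3%), against 96%, and Kcne2 and Kcnk7 were the exceptions. With at most 7 CpGs 9 of 19 were marked (47.4%, Wilson interval 27.3 to 68.3), against 26.8%. Median CpG count was 14 in members and 15 over all genes, so the members did not differ much in content.

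**Figure D4:**
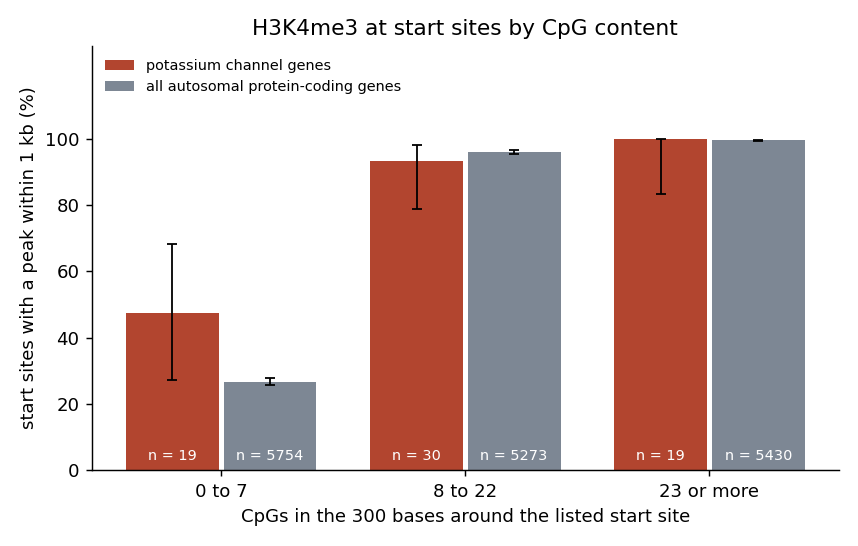
Share of start sites (%) with an H3K4me3 peak within 1 kb, by the number of CpGs in the 300 bases around the start, for potassium channel genes (red) and all autosomal protein-coding genes (grey), with Wilson 95% intervals and the number of genes. In the class of 0 to 7 CpGs the bars stand at 47.4% and 26.8%, and in the other classes both are above 93%.

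Members with few CpGs and a peak within 1 kb of that start were Kcna5, Kcna7, Kcnab1, Kcnc2, Kcnf1, Kcnip4, Kcnk4, Kcnk18 and Kcnmb1. The median width of the strongest start peak in this class was 1664 bp in members, against 936 bp over all genes. Kcna7, with 636 bp, and Kcnmb1, with 317 bp, lay below that median of all genes. At Kcnab1 and Kcnip4 the strongest start peak, of 1981 and 1057 bp, lay over 1 kb from the start whose CpGs were counted. The median pileup was 48 fragments in members, against 38. The median fold was lower in members, 5.55 against 6.95, over a median background of 7.41 against 4.25 fragments. Beside the printed sequences, the peak of Kcnf1 ran 325 bp before the start and 2214 bp after it, and that of Kcna5 266 and 1838 bp. At Kcnc2 the peak ran 1408 bp before the start and 1507 bp after it, and at Kcnk18 1154 and 509 bp. The 300-base window does not show the CpG content under the rest of such a peak, and sequence beyond that window was not used here. Members with few CpGs and no peak within 1 kb of that start were Kcna10, Kcng4, Kcnj1, Kcnj9, Kcnj12, Kcnj13, Kcnj15, Kcnk16, Kcnn4 and Kcnrg. Of these, Kcnj12, Kcnk16 and Kcnn4 were marked at an annotated end.

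**Figure D5:**
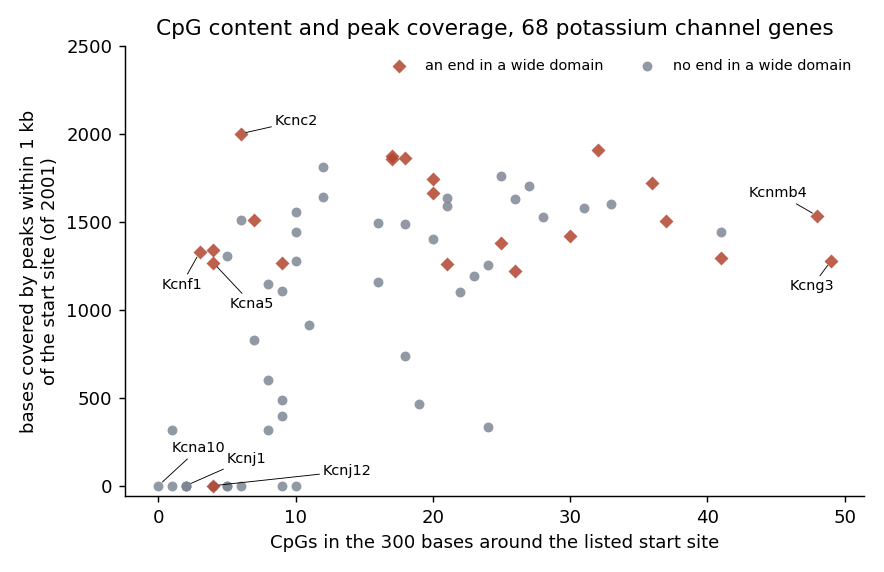
Bases covered by H3K4me3 peaks within 1 kb of the listed start with the most CpGs, against the CpGs in the 300 bases around it, 1 point per potassium channel gene with a listed start (68 genes). Diamonds are genes with an end in a wide domain; Kcnf1, Kcna5 and Kcnc2 stand high at 3, 4 and 6 CpGs, while Kcna10 and Kcnj1 stand at 0 bases.

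Short motifs were searched on both strands of the same 300-base windows, 93 of members and 20085 in all. The GC box GGGCGG, which itself holds a CpG, occurred in 44 member windows (47.3%), against 47.0% of all windows. The TATA box TATAAA occurred in 5 (5.38%), those of Kcnab1, Kcnj9, Kcnj13, Kcnj15 and Kcnj16, against 12.7%. RE1 is the element bound by REST, a repressor of neuronal genes outside the nervous system. Its left part TTCAGCACC occurred in 1 member window, that of Kcnh6, and in 0.413% of all windows. Its right part was first searched with a further C at the 3′ end, which occurred in 0 member windows and 0.194% of all. Shortened to GGACAGCGC after that result had been seen, it occurred in 1 member window, that of Kcnj4, and in 0.563% of all. Both forms hold CpGs. A match is a description of these letters, and no match says only that they are not in this window.

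Wide domains of H3K4me3 were found at more potassium channel genes than genes in general. Neighbouring peaks were joined where at most 1000 bp separated them, and the widest 5% of domains, of at least 2001 bp, were called wide. An end lay in a wide domain in 27 of 91 members (29.7%, Wilson interval 21.3 to 39.7), against 17.4% of all genes. The share was 19.8% against 7.45% with the widest 2%, but 11.0% against 10.4% with a join gap of 3000 bp, where the difference was gone. Among genes with at most 7 CpGs the counts were 6 of 19 members, against 2.71% of all genes. Of these 6, Kcna5, Kcna7, Kcnc2 and Kcnf1 had the wide domain at the listed start, whereas those of Kcnj12 and Kcnip4 lay at an annotated end away from the listed starts.

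Wide domains were most frequent in the voltage-gated classes, a count that was not tested. The share over all genes was 17.4%. Classes were counted with the join gap of 1000 bp alone, and with 3000 bp the difference over all members was gone. They were found at 9 of 16 Kv1 to Kv4 genes, among them Kcna3, Kcna5, Kcna7, Kcnc1, Kcnc2, Kcnc4, Kcnd2 and Kcnd3. The modifier subunits had 5 of 10, with Kcnf1, Kcng2, Kcng3, Kcns2 and Kcns3. The Kcnq family had 2 of 4, among them Kcnq5, and Kcnh3, Kcnh5 and Kcnh8 were 3 of 8. The inward rectifiers had 4 of 15, with Kcnj2, Kcnj6, Kcnj8 and Kcnj12. In the remaining classes Kcnk12, Kcnma1, Kcnip4 and Kcnmb4 were the members with a wide domain. They were 1 of 14 tandem-pore (7.14%), 1 of 8 calcium- or sodium-activated (12.5%) and 2 of 16 auxiliary genes (12.5%), below the share over all genes. The widest was the domain of 2916 bp at Kcnc2, and Kcnd2 followed with 2907 bp.

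Some members that neighbour each other on a chromosome differed in the mark, and others were both marked. Kcnj10 had 61 fragments while Kcnj9, 11888 bp away, was unmarked at its ends. Kcnj5, which forms a cardiac channel with Kcnj3, had 43 fragments, and Kcnj1, 28038 bp away, had no peak. Kcne1, a partner of cardiac channels, had 32 fragments with a fold of 9.15, and Kcne2, 47868 bp away, had none. In the chromosome 3 group Kcna3 had 47 fragments, Kcna2 52 at an inner start and Kcna10 none. Kcna1 and Kcna6, 62527 bp apart, were both marked, with 56 and 43 fragments, and their counting intervals overlapped. Kcnk5 had 51 fragments and Kcnk16, 79593 bp away, 20 at its 3′ end. Kcnj2 had 52 and Kcnj16, 38196 bp away, 17 at its annotated start and 35 at an inner one, where the fold was 11.5.

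Inside the genes and away from the ends lay 319 of the 449 peaks counted, of which 448 were distinct. Per length of gene body this was 31.4 peaks per Mb in members, against 30.5 over all genes. By length the density was 135.9 per Mb in members under 10 kb, on 11 peaks, against 66.9, and 64.9 against 38.3 from 10 to 50 kb. It was 40.6 against 26.7 from 50 to 200 kb, and 24.4 against 28.3 over 200 kb. Members were thus denser in the 3 shorter classes and less dense in the longest. Internal peaks here include those at start sites listed inside a gene, as at Kcna2 and Kcne3, and their part in the density was not tested. Kcnip4, with 1136 kb the longest member, held 31 internal peaks. Kcnt2 held 21, and the widest of them spanned 970 bp, with 40 fragments and a fold of 11.5. Kcnd3, by contrast, held 1 internal peak in 222 kb and Kcnh8 held 2 in 376 kb.

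Some end peaks were shared with other genes. At Kcnab2, Kcnh6 and Kcnu1 every end peak also lay within 1 kb of an end of another protein-coding gene, which was Nphp4, Ace3 or Dcaf7, and Ash2l. Without these 3, 71 of 91 members (78.0%) were marked. The same removal was not made over all genes, so this share has no background to set beside it.

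Other ion channels had shares near those of potassium channel genes. Of 72 sodium, calcium, pacemaker, chloride and TRP channel genes together 55 were marked at an end (76.4%) and 22 had an end in a wide domain (30.6%). Voltage-gated sodium channels were marked in 13 of 14 cases, calcium channels in 19 of 25, pacemaker channels in 4 of 4, chloride channels in 5 of 8 and TRP channels in 14 of 21. Wide domains were found at 12 of 25 calcium channel genes and 3 of 21 TRP channel genes. Among other gene families of somatic tissues, 33 of 42 collagen genes (78.6%) and 42 of 93 cytochrome P450 genes (45.2%) were marked, and the median CpG counts of their starts were 13 and 3. These differences rest on 1 library and were not tested.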

How the data were processed

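H3K4me3 CUT&RUN peaks of 1 library were analysed. Per the submitters' processing notes, the tools were MACS2 2.1.0, Bowtie2 2.5.0, Trim Galore, deepTools 3.5.1, SAMtools 1.16.1 and bedtools 2.27.1, and the builds mm10 and sacCer3. Their roles and settings are not stated in the sources. The authors deposited for each peak a fold enrichment (a ratio), a −log10 p, a −log10 q and a score. The library's total depth is unknown.

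Summit pileup and background were recovered from the fold, as (pileup + 1)/(background + 1), and the p, as a Poisson upper tail, which solved 135053 of 135064 peaks within 0.0001. Counts of peaks used a −log10 q of at least 2, which removed 0 peaks. Marking used windows of 1000 bp, RefSeq gene coordinates of GRCm38.p6, and RefSeq start sites. Pileups have exact Poisson and shares Wilson intervals of 95%. Fragments carry no molecular identifiers here, so these cover counting error only.

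Members, classes and lists were chosen with earlier results of these data known. Genes named were the 3 of highest fold in each class, those with no peak, those in wide domains, the 5 of most bases covered, the 5 of highest pileup, up to 5 with internal peaks only, by internal peaks per kb, and 15 named whatever their value. Any further gene was picked with its values in view, and some genes that the rule names are not reported here. Scripts were tested on simulated data. The software was numpy 2.4.6, scipy 1.17.1, pandas 2.3.3 and matplotlib 3.10.9 under Python 3.11.15.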

Additional observations from a re-analysis of the deposited data

How the results depend on the processing

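The share of potassium channel genes marked at an end was 81.3%. It lay outside the counting interval with only peaks of a fold of at least 5 (58.2%, against 57.1% of all genes), with a window of 2500 bp (91.2%, against 80.6%) and with listed starts added (89.0%, against 77.2%), the last chosen after seeing the data. Under the other settings tried for this share it lay between 75.8% and 82.4%. With a fold of at least 5, a peak at an end or inside was found in 83.5% of members, against 71.1%. At that threshold a listed start was marked in 50% of members, against 56.2%, and the median fold was 6.29 against 6.67. The median length covered at the fuller end was 569 bp with a window of 500 bp and 1589 bp with 2500 bp, against 659 and 1328 bp over all genes, and 1055 bp with 1000 bp. The share in wide domains was 11.0% with a join gap of 3000 bp, 41.8% with the widest 10% and 19.8% with the widest 2%, against 10.4%, 31.3% and 7.45% of all genes. Split at 0.6 of CpG observed over expected, 72.1% of the members at or under it were marked, against 44.4%. The causes were not tested, beyond the fewer or more peaks each setting admits. Where a gene kept an end peak under other windows and overlaps, 279 of 288 highest folds lay within the counting interval. A fold could not change where the same peak was picked again, so this count does not measure spread. End peaks were lost altogether at 3 genes with a window of 500 bp and at 5 where the summit had to lie inside the window. A gene without a peak may hold signal below the caller's threshold: the lowest pileup in the list was 9 fragments.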

Other observations

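Kcn genes outside the autosomal protein-coding set also carried peaks at their ends. Kcnd1, an A-type channel gene on the X chromosome, had 28 fragments in a peak of 1089 bp, and Kcne1l, also X-linked, had 41 in a peak of 1792 bp. The noncoding RNA gene Kcnd3os shared a peak of 1060 bp and 47 fragments with Kcnd3. At Kcnmb4, the peak with a fold of 10.3 at the 3′ end also lay at an end of the noncoding RNA gene Kcnmb4os1, and the peak of 1000 bp at its start lay at an end of Kcnmb4os2. Which of the overlapping genes such a peak belongs to cannot be told from the list.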
